A study of Mus musculus with 12 samples.

Results

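The Cyp2d cytochrome P450 family was taken as the genes Cyp2d9, Cyp2d10, Cyp2d11, Cyp2d12, Cyp2d13, Cyp2d22, Cyp2d26, Cyp2d34 and Cyp2d40, chosen by symbol. No measured value set the list, but earlier results of these data were known when it was chosen. Of these 9 listed genes, 8 had a row among the 55487 rows of the expression table, and Cyp2d13 was not analysed here. Liver RNA was sequenced from 6 SAP samples (numbered 10 to 15) and 6 control samples (numbered 3 to 8). SAP is severe acute pancreatitis, given with caerulein, an analogue of the hormone cholecystokinin that overstimulates the pancreas. Every sample, in either group, came from wild-type Balb/c mice aged 6 weeks, and the labels name no sex, dose or time after treatment. More than 1 mouse model is mentioned in the design text but not in the labels, which name only this strain and treatment, and the SAP samples are therefore taken as labelled. The labels do not say that each sample is a separate animal, so p-values measure only the spread between these samples.

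CYP2D enzymes are haem monooxygenases of the endoplasmic reticulum, most abundant in hepatocytes, that oxidise lipophilic drugs and endogenous amines and steroids with electrons passed on by NADPH-cytochrome P450 reductase. Humans have a single active gene of the family, CYP2D6, which clears many antidepressants, beta blockers and opioids and, unlike most drug-metabolising P450s, is little induced by drugs. Its promoter is activated by HNF4 alpha, the nuclear receptor of hepatocyte identity, through a direct repeat of the receptor's recognition sequence. In mice the family has expanded into a cluster of genes.

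Levels are in TPM, transcript abundance per length scaled to nearly the same total in each library, so levels of different genes can be compared. A total of 11323 ± 356 genes reached 1 TPM in SAP livers and 11333 ± 101 genes in control livers (SD, n = 6 each). Of the 8 members with a row, 5 (Cyp2d26, Cyp2d10, Cyp2d9, Cyp2d22 and Cyp2d40) reached 1 TPM in at least 6 of the 12 libraries, as did 11335 genes in all, and were tested. The other 3 (Cyp2d12, Cyp2d34 and Cyp2d11) never exceeded 1.15 TPM. Each change below is a log2 difference on the log2(TPM + 1) scale with its standard error, SAP minus control, from limma across all 11335 genes with Benjamini-Hochberg adjustment at 0.05.

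The genes lie together on chromosome 15 of GRCm38, in GENCODE M21 annotation, in a span of 423.8 kb between positions 82370527 and 82794294 that held 8 protein-coding genes, all of them members, and 9 of the 10 annotated Cyp2d pseudogenes. Cyp2d22 (82370527 to 82380260), Cyp2d11 (82389154 to 82394022) and Cyp2d10 (82402846 to 82407195), all on the minus strand, stand at the lower end of the coordinates, followed by Cyp2d9 (82433437 to 82456845) and Cyp2d12 (82555072 to 82560403) on the plus strand. Cyp2d34 (82615965 to 82620946), Cyp2d40 (82759833 to 82764183) and Cyp2d26 (82790101 to 82794294), all on the minus strand, complete the cluster.

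RefSeq promoter sequences (GRCm38.p6) were matched for 5 members, Cyp2d26, Cyp2d10, Cyp2d9, Cyp2d40 and Cyp2d11. They are shown because 4 of them start transcripts abundant in these livers and the fifth, Cyp2d11, starts one near 0, although its letters resemble those of Cyp2d10 and Cyp2d9. Each stretch runs 5′ to 3′ on the gene's own strand, from 150 bases before the start to 50 bases after it. The stretches are chr15:82794196-82794395 (minus strand) for Cyp2d26, chr15:82407145-82407344 (minus) for Cyp2d10, chr15:82452227-82452426 (plus) for Cyp2d9, chr15:82764073-82764272 (minus) for Cyp2d40 and chr15:82393973-82394172 (minus) for Cyp2d11. Capitals mark matches to the HNF4 direct repeat (AGGNCA, any 1 base, AGGNCA) or to a shorter core, CAAAGNNCA. The reference genome is of another strain than Balb/c.
Cyp2d26: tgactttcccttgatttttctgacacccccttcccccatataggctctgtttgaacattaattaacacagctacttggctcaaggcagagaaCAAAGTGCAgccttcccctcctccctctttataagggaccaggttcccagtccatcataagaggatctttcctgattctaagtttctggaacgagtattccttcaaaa
Cyp2d10: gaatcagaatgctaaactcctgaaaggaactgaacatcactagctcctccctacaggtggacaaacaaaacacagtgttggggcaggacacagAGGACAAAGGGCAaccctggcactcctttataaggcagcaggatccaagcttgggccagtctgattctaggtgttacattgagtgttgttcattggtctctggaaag
Cyp2d9: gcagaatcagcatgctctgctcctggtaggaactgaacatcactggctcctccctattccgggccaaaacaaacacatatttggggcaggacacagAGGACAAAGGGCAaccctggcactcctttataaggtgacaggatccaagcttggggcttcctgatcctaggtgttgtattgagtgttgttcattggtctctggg
Cyp2d40: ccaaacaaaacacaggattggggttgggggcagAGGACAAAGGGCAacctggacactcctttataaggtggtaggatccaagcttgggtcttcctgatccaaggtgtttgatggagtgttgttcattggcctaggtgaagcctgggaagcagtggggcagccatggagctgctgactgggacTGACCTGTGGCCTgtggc
Cyp2d11: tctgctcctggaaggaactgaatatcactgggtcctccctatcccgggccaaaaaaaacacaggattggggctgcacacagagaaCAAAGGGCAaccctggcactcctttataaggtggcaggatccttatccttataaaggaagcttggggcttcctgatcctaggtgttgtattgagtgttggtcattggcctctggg

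The direct repeat was searched on both strands of the 300-base RefSeq promoter windows and was found for Cyp2d10, Cyp2d9 and Cyp2d40, in 3 of the 5 member promoters, against 0.381% of 27025 mouse promoters. The same letters, AGGACAAAGGGCA, began 57 bases before the start in Cyp2d10, 54 in Cyp2d9 and 117 in Cyp2d40. The letters around them are much alike too, so these matches are not independent and their share cannot show enrichment. Cyp2d40 also had a match on the opposite strand that began 32 bases after the start. These distances count from the RefSeq starts. The GENCODE gene starts of Cyp2d40, Cyp2d26 and Cyp2d9 lie upstream of those, so the distances depend on the annotation used. The core, chosen after these letters had been seen and lying inside the direct repeat, was found in 5 of the 5 member promoters against 6.37% of all, with CAAAGTGCA in Cyp2d26 and CAAAGGGCA in the other 4. The HNF1 motif of GTTAAT and ATTAAC 1 base apart (0.0074% of all promoters), the C/EBP motif TTGCNNAA (10.8%) and the STAT5 motif TTCNNNGAA (8.47%) were found in 0 of the 5. With shares this low and so few promoters, that absence does not set the members apart. A match describes letters and not binding, which was not measured.

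In SAP livers the transcripts of Cyp2d10 and Cyp2d22 fell under every scaling tried, those of Cyp2d26 and Cyp2d40 were slightly lower in the TPM as deposited but lost that call under 2 of the 3 other scalings, and Cyp2d9 did not pass the threshold. Of the 5 members tested, 4 were lower and 0 higher, against 25.0% lower and 19.5% higher among all 11335 genes. The median change of the 5 was -0.41, beside -0.03 over all genes tested. With the TPM rescaled without 33 acute-phase genes, 2 of the 5 (Cyp2d10 and Cyp2d22) were lower. The median of the 5 was then -0.037, beside 0.29 over all genes tested, of which 5898 were higher and 1307 lower. Under quantile normalization the same 2 of the 5 were lower, with a median of -0.11, beside 0.02 over all genes tested. In 2 of the 5, Cyp2d10 and Cyp2d22, every SAP library was below every control library, as in 15.1% of all genes tested. In bulk tissue, fewer cells of a type and less RNA per cell cannot be told apart.

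Cyp2d26 had the highest mean level of the family in both groups. It was at 789, 910, 784, 774, 606 and 872 TPM in SAP libraries 10 to 15, against 903, 961, 901, 945, 1040 and 985 TPM in control libraries 3 to 8. The groups overlapped through SAP 11 alone, and the other 5 SAP libraries were below the lowest control library. Its mean was 789 ± 105 TPM in SAP livers and 956 ± 52.7 TPM in control livers (SD, n = 6 each), a log2 change of -0.29 ± 0.09 (adjusted p = 0.0180 in limma). This small difference varied with the scaling. It stayed past the threshold at -0.23 (adjusted p = 0.0174 in limma) with libraries scaled by a trimmed mean of ratios (TMM-like). It was 0.088 (adjusted p = 0.286) when the TPM were rescaled without the acute-phase genes, where the median over all genes tested was 0.29. Under quantile normalization it was -0.092 (adjusted p = 0.362).

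Cyp2d10 stood close to Cyp2d26 in control livers and well below it in SAP livers. It was at 426, 487, 560, 434, 295 and 510 TPM in SAP libraries 10 to 15, against 851, 965, 823, 970, 894 and 834 TPM in control libraries 3 to 8. The groups did not overlap, and the highest SAP library lay far below the lowest control library. Its mean was 452 ± 91.6 TPM in SAP livers and 889.6 ± 65.1 TPM in control livers (SD, n = 6 each), a log2 change of -1.0 ± 0.13 with a 95% confidence interval of -1.27 to -0.73 (adjusted p = 3.35e-05 in limma). It stayed between -1.07 and -0.63 over 25 alternative fits, each of them past the threshold.

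Cyp2d9 encodes a steroid hydroxylase known as a male-predominant P450 of mouse liver. It was at 280, 299, 410, 369, 172 and 297 TPM in SAP libraries 10 to 15, against 322, 437, 219, 391, 370 and 259 TPM in control libraries 3 to 8. The groups overlapped widely. Its mean was 304.5 ± 81.9 TPM in SAP livers and 333.0 ± 82.9 TPM in control livers (SD, n = 6 each), and the log2 difference of -0.14 ± 0.21 did not pass (adjusted p = 0.618 in limma). The 95% confidence interval, -0.59 to 0.31, leaves room for changes in either direction, and over 25 alternative fits the value ran between -0.25 and 0.23. This level was present although the 4 Y-linked transcripts examined were at or below 0.10 TPM in every library, while Xist, transcribed from the inactive X chromosome, was detected in all 12.

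Cyp2d22, often treated as the mouse counterpart of human CYP2D6, had the largest fold decrease among the 5 tested and varied most between SAP libraries relative to its mean. It was at 82.0, 37.3, 106, 153, 23.4 and 112 TPM in SAP libraries 10 to 15, against 260, 225, 238, 272, 193 and 167 TPM in control libraries 3 to 8. The highest SAP library, SAP 13, was just under the lowest control library. Its mean was 85.7 ± 48.8 TPM in SAP livers and 226 ± 39.9 TPM in control livers (SD, n = 6 each), a log2 change of -1.63 ± 0.38 with a 95% confidence interval of -2.44 to -0.81 (adjusted p = 0.00328 in limma). Over 25 alternative fits the change ran between -1.84 and -1.23 and passed in each.

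Cyp2d40 was at 76.2, 92.5, 115, 80.4, 62.6 and 103 TPM in SAP libraries 10 to 15, against 103, 117, 141, 117, 111 and 106 TPM in control libraries 3 to 8. Of the SAP libraries, 4 were below the lowest control library, and control 5 stood apart at the top. Its mean was 88.3 ± 19.1 TPM in SAP livers and 116 ± 13.6 TPM in control livers (SD, n = 6 each), a log2 change of -0.41 ± 0.13 (adjusted p = 0.0224 in limma). Without control 5 the change was -0.35 and no longer passed (adjusted p = 0.0504), and outside the acute-phase genes it was -0.037 (adjusted p = 0.774).

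**Figure D1:**
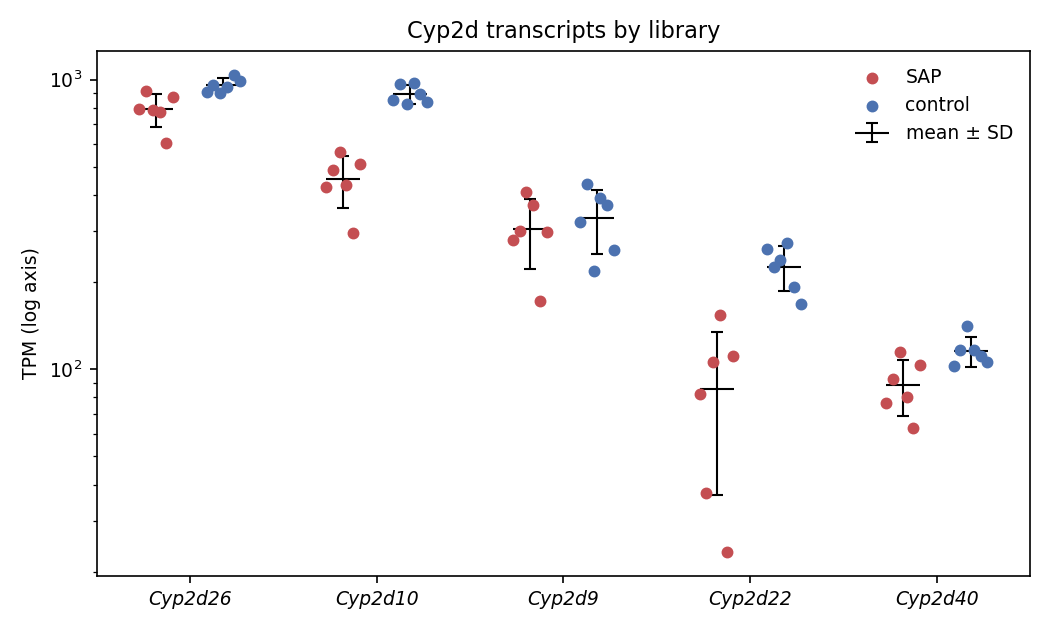
TPM of the 5 tested Cyp2d members, all at or above 1 TPM in each library, on a log axis, with the 6 SAP libraries left of the 6 control libraries. Horizontal lines are group means and error bars the SD. Cyp2d10 and Cyp2d22 show separate groups, Cyp2d26 and Cyp2d40 overlap in part, and the groups of Cyp2d9 lie over each other.

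The members with low levels were Cyp2d12, Cyp2d34 and Cyp2d11, and no test was made on them. Cyp2d12 averaged 0.648 ± 0.210 TPM in SAP livers and 0.787 ± 0.384 TPM in control livers (SD, n = 6 each). Cyp2d34 averaged 0.263 ± 0.182 TPM in SAP livers and 0.383 ± 0.110 TPM in control livers (SD, n = 6 each), and SAP 14 listed it at 0. Cyp2d11 was listed at 0 in 9 of the 12 libraries and reached at most 0.05 TPM. The library SAP 14 was also the lowest of all 12 for each of the 5 abundant members.

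The members are near copies, and the counting of reads shared between genes is not described in the labels. Aligned transcripts of Cyp2d10 and Cyp2d11 were 94.2% identical, those of Cyp2d9 and Cyp2d11 93.4%, and those of Cyp2d9 and Cyp2d10 91.6%. Of all 50-base stretches of Cyp2d10 transcripts, 40.5% also occurred in another gene, 25.9% in Cyp2d11. The share was 29.0% for Cyp2d9, 24.2% for Cyp2d40, 10.5% for Cyp2d26 and 6.14% for Cyp2d22. The levels of Cyp2d10, Cyp2d11 and Cyp2d9 are therefore less certain as values of single genes than those of Cyp2d22 and Cyp2d26, whose transcripts share fewer stretches with other genes.

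Among the 10 pseudogene rows, 3 passed the level filter. Cyp2d37-ps was lower, at 7.96 ± 6.41 TPM in SAP livers and 20.6 ± 7.47 TPM in control livers (SD, n = 6 each, log2 change -1.45 ± 0.45, adjusted p = 0.0175 in limma). Cyp2d38-ps was also lower, at 9.27 ± 8.86 TPM in SAP livers and 26.3 ± 7.84 TPM in control livers (SD, n = 6 each, -1.71 ± 0.43, adjusted p = 0.00584). Cyp2d41-ps, beside Cyp2d26 in the cluster, had every SAP library above every control library, at 2.70 ± 0.53 TPM in SAP livers and 0.785 ± 0.197 TPM in control livers (SD, n = 6 each, 1.05 ± 0.11, adjusted p = 8.00e-06). With libraries split at an Xist level of 30 TPM and that split as a term, Cyp2d37-ps was at -0.65 (adjusted p = 0.0995), and among high Xist libraries alone Cyp2d38-ps was at -0.88 (adjusted p = 0.0844). Cyp2d41-ps passed the filter mainly through the SAP libraries, and 18.7% of its 50-base stretches occur in another gene. Of the other 7 pseudogenes, 5 were listed at 0 in all libraries and Cyp2d35-ps and Cyp2d36-ps did not exceed 0.13 TPM.

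**Figure D2:**
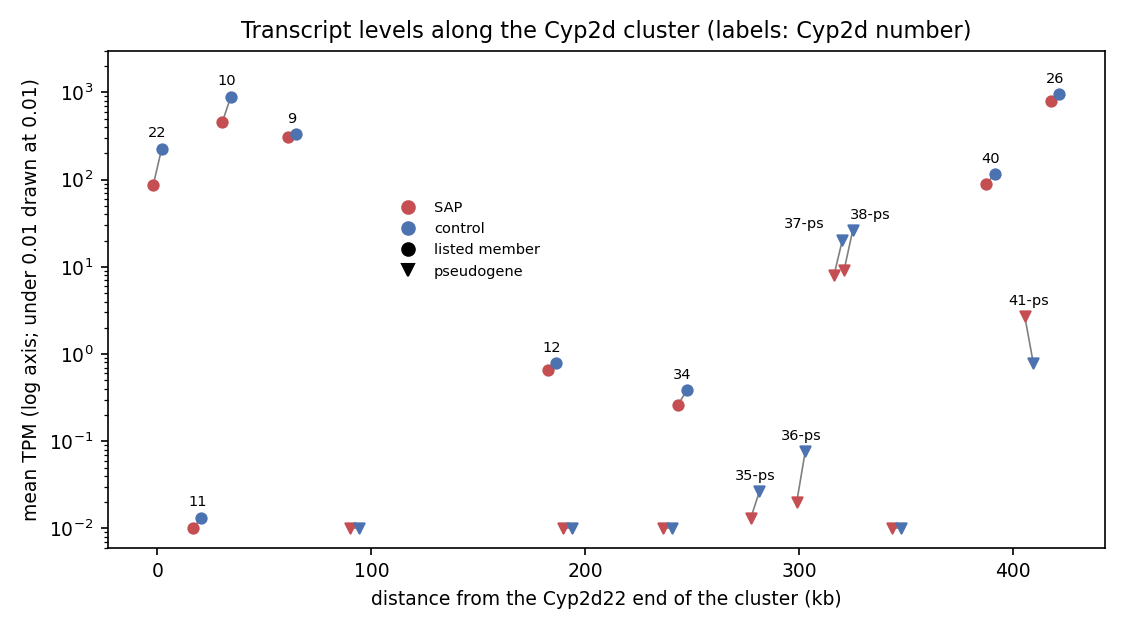
Mean TPM (log axis, values under 0.01 drawn at 0.01) of each annotated Cyp2d gene in the cluster against its distance in kb along the cluster, SAP drawn left of control and joined to it by a line. The abundant members stand at both ends of the cluster, at means of 85.7 TPM or more, and among genes drawn above 0.01 TPM Cyp2d41-ps alone lies higher in SAP livers.

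The summed level of the family was lower in SAP livers. The 8 members together made 1655, 1827, 1976, 1812, 1159 and 1894 TPM in SAP libraries 10 to 15, against 2440, 2706, 2322, 2698, 2610 and 2353 TPM in control libraries 3 to 8. The groups did not overlap. The mean of 1720 ± 295 TPM in SAP livers was 31.8% below the mean of 2521 ± 172 TPM in control livers (SD, n = 6 each). In the same libraries 33 acute-phase genes took 26.3 ± 4.97% of all TPM in SAP livers and 4.65 ± 0.230% in control livers. This left a smaller share for all other genes together, although the median change over all genes tested was only -0.03. With the TPM rescaled outside the acute-phase genes, the family summed to 2333 ± 274 in SAP livers and 2658 ± 184 in control livers (SD, n = 6 each), 12.2% lower with overlapping groups. That rescaling put the median change over all genes tested at 0.29, so 12.2% belongs to an alternative scaling and is not a corrected value. On that scale Cyp2d10 still had separate groups, with 612 ± 89.5 in SAP livers and 938 ± 69.2 in control livers, while Cyp2d22 averaged 115 ± 63.7 in SAP livers and 238 ± 41.9 in control livers with overlap.

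**Figure D3:**
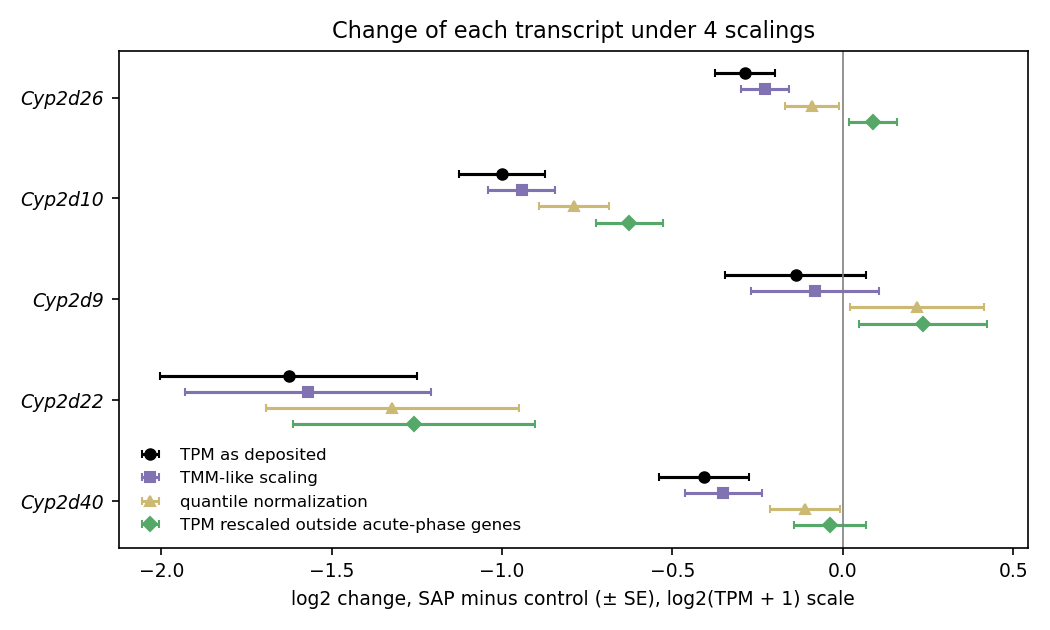
Log2 change, SAP minus control, of the 5 tested members on the log2(TPM + 1) scale under 4 scalings, with error bars of 1 standard error. Cyp2d10 and Cyp2d22 stay below 0 under each, and Cyp2d26 lies at 0.088 when acute-phase genes are left out of the scaling.

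The make-up of the family was also different, and shares within it do not depend on the scaling of the libraries. Cyp2d10 made 26.2 ± 1.49% of the summed Cyp2d TPM in SAP livers and 35.3 ± 0.613% in control livers (SD, n = 6 each), with every SAP library below every control library. Cyp2d26 made 46.4 ± 4.63% in SAP livers and 38.0 ± 2.65% in control livers, and Cyp2d9 made 17.5 ± 2.48% in SAP livers and 13.1 ± 2.47% in control livers, both with overlap. Cyp2d22 made 4.79 ± 2.46% in SAP livers and 8.96 ± 1.55% in control livers, and Cyp2d40 made 5.13 ± 0.530% in SAP livers and 4.62 ± 0.720% in control livers, again with overlap. The order of the members also differed. In SAP livers Cyp2d26 was above Cyp2d10 in 6 of 6 libraries, against 4 of 6 control libraries. Cyp2d22 was above Cyp2d40 in 3 of 6 SAP libraries, where neither led, against 6 of 6 control libraries.

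**Figure D4:**
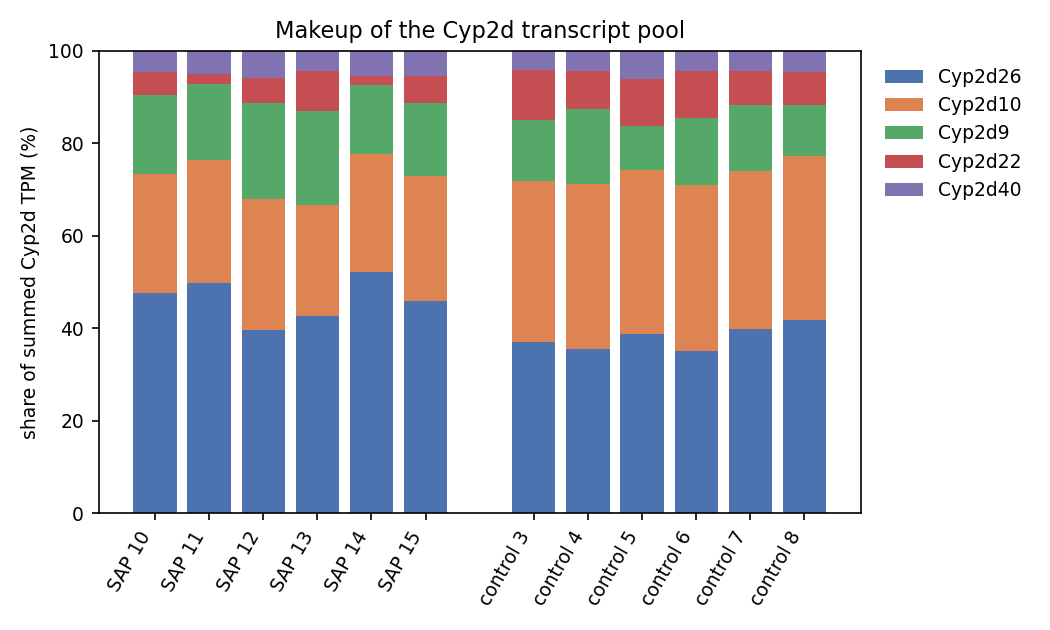
Stacked bars of the percent of the summed Cyp2d TPM made by each of the 5 abundant members, 1 bar a library, SAP libraries left of control libraries. The 3 members near 0 are not drawn. The Cyp2d10 portion averages 26.2% in SAP libraries and 35.3% in control libraries, with no overlap.

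Each member was tested against Cyp2d26, the most abundant, by fitting limma to the log2 ratio of every gene to Cyp2d26. The ratio of Cyp2d10 to Cyp2d26 was 0.570 ± 0.0779 in SAP livers (range 0.486 to 0.715) and 0.932 ± 0.0735 in control livers (range 0.847 to 1.03; SD, n = 6 each). Cyp2d10 fell by 0.71 ± 0.10 on the log2 scale relative to Cyp2d26 (adjusted p = 3.87e-05), and Cyp2d22 fell by 1.34 ± 0.35 (adjusted p = 0.00467). Both passed in every alternative with a test. Cyp2d40, at -0.12 ± 0.12 (95% confidence interval -0.37 to 0.13, adjusted p = 0.390), and Cyp2d9, at 0.15 ± 0.18 (-0.23 to 0.53, adjusted p = 0.493), did not pass. Thus 2 of 4 members were lower relative to Cyp2d26 and 0 higher, while 11.9% of all genes were lower and 44.3% higher on this scale.

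Cyp2d10 and Cyp2d9 have nearly the same promoter letters around the direct repeat and were set against each other after the data had been seen. The ratio of Cyp2d9 to Cyp2d10 was 0.670 ± 0.105 in SAP livers (range 0.582 to 0.851) and 0.371 ± 0.070 in control livers (range 0.266 to 0.453; SD, n = 6 each), and the groups did not overlap. Relative to Cyp2d10, Cyp2d9 was higher by 0.86 ± 0.14 on the log2 scale (limma on log2 ratios, adjusted p = 2.9e-05), Cyp2d26 by 0.71 ± 0.11 and Cyp2d40 by 0.59 ± 0.11. On this scale 89.3% of all genes were higher and 3.00% lower, so the direction is shared by most genes. Cyp2d22 was at -0.63 ± 0.30 relative to Cyp2d10 (adjusted p = 0.0560), which passed in 3 alternatives and not in the others.

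Within the groups the members moved together to unequal degrees. The correlation of deviations from the group means over the 12 libraries was highest between Cyp2d9 and Cyp2d10, at r = 0.81, and lowest between Cyp2d22 and Cyp2d26, at r = 0.34. All values share the same libraries and scaling, and are given as a description. Among 7369 genes with a mean of at least 5 TPM, the deviations most like those of the summed family belonged to Bphl (r = 0.98), Ephx1 (0.97), Ptms (0.97), Acad10 (0.97) and Acsm5 (0.97), also over the 12 libraries. Ephx1 encodes microsomal epoxide hydrolase, which acts on epoxides that P450 enzymes make. These 5 genes were lower in SAP livers, with log2 changes between -1.60 for Acsm5 and -0.64 for Ptms. Ptms was at -0.27 and did not pass (adjusted p = 0.0525 in limma) when rescaled outside the acute-phase genes.

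Other P450 genes of families 1 to 3, which hold most drug- and steroid-metabolising P450s, had larger decreases. Of 34 tested, 31 were lower and 1 higher, with a median log2 change of -2.45, beside 25.0% lower and 19.5% higher among all genes. In 28 every SAP library was below every control library, as in 15.1% of all genes. The genes with the smallest adjusted p were Cyp2c29 (-6.59), Cyp2c55 (-3.0), Cyp2a22 (-2.47) and Cyp2c50 (-4.91). Cyp2c55, at most 0.07 TPM in SAP livers, passed the filter only through control libraries. Cyp2c29 averaged 37.5 ± 15.1 TPM in SAP livers and 3487 ± 609 TPM in control livers (SD, n = 6 each). In the fit relative to Cyp2d26, 30 of the 34 were lower and 2 higher (11.9% and 44.3% of all genes). Relative to Cyp2d10, 23 were lower and 6 higher (3.00% and 89.3% of all genes). The change of Cyp2d9 was less negative than that of 32 of the 34, Cyp2d26 and Cyp2d40 than 31 each, Cyp2d10 than 26 and Cyp2d22 than 22.

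Partners of P450 enzymes in electron transfer and haem supply were lower as a group. Of 8 tested, 7 were lower and 0 higher, with a median log2 change of -1.02, beside 25.0% lower and 19.5% higher among all genes. Por, the reductase that feeds electrons to all microsomal P450s, averaged 160 ± 59.9 TPM in SAP livers and 332 ± 47.6 TPM in control livers (SD, n = 6 each, -1.14 ± 0.24, adjusted p = 0.00186 in limma). Cytochrome b5, encoded by Cyb5a, averaged 899 ± 223 TPM in SAP livers and 2282 ± 141 TPM in control livers (SD, n = 6 each, log2 change -1.39). Cyb5b of the outer mitochondrial membrane (-1.15), the haem-binding Pgrmc1 (-0.90) and the cytochrome b5 reductase gene Cyb5r3 (-0.84) were lower too. With acute-phase genes left out of the scaling, 6 of the 8 were lower, beside 1307 of all 11335 genes.

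Transcription factors and xenobiotic receptors of hepatocytes had no common direction. Of 18 tested, 3 were higher, 4 lower and 11 not past the threshold, with a median log2 change of -0.12. Among all genes tested 19.5% were higher and 25.0% lower, so these counts are near the shares of all genes. Outside the acute-phase genes 7 of the 18 were higher and 2 lower, while 5898 of all 11335 genes were higher and 1307 lower. Foxa3 (0.90), Foxa2 (0.85) and Foxa1 (0.61), pioneer factors of liver genes, had every SAP library above every control library, and Ahr, the dioxin receptor, was lower (-0.74). Hnf4a encodes HNF4 alpha, which recognises direct repeats of the kind searched for above, though binding to these promoters was not measured. Hnf4a averaged 208 ± 33.0 TPM in SAP livers and 182 ± 18.6 TPM in control livers (SD, n = 6 each). Its log2 difference of 0.18 ± 0.10 did not pass (adjusted p = 0.164 in limma), but reached 0.56 (adjusted p = 2.63e-04) when rescaled outside the acute-phase genes and 0.56 (adjusted p = 3.14e-04) under quantile normalization. Nr0b2, encoding the repressor SHP, which lowers CYP2D6 in humanised mice, averaged 59.6 ± 29.7 TPM in SAP livers and 87.8 ± 23.0 TPM in control livers (SD, n = 6 each, -0.67 ± 0.30, adjusted p = 0.0862).

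Growth hormone sets the sex-biased expression of many mouse liver P450s, Cyp2d9 among them. Of 11 genes of growth hormone signalling, 1 was higher and 6 lower, with a median log2 change of -0.51. Among all genes tested 19.5% were higher and 25.0% lower. Outside the acute-phase genes 3 of the 11 were higher and 5 lower, with a median of -0.17, while 5898 of all 11335 genes were higher and 1307 lower. The receptor gene Ghr was lower (-1.04), as were Igf1 (-0.70, or -0.33 outside the acute-phase genes), the main target encoding insulin-like growth factor, and Bcl6 (-1.94), a repressor of female-biased genes, while Cish, a feedback inhibitor, was higher (1.89). Cish, at most 0.73 TPM in control livers, passed the filter only through SAP libraries. Of 12 male-biased liver genes, 9 were tested, of which 7 were lower and 0 higher (median -0.86). Selenbp2 (-2.69) and Slco1a1 (-3.0) are examples. Outside the acute-phase genes 4 of the 9 were lower. Of 15 female-biased liver genes, 13 were tested, of which 11 were lower and 0 higher (median -2.32), led by Hao2 (-4.15) and Cyp2c40 (-3.74). The Cyp2a, Cyp2b, Cyp2c and Cyp3a genes of this list also belong to the other P450 genes counted above, so its decrease is not a separate result. Cyp2d9 did not move past the threshold beside either list.

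Genes around the cluster on chromosome 15 had calls in both directions, more of them lower than higher in the TPM as deposited. Of 32 listed neighbours, 22 were tested, with 10 lower, 3 higher and a median log2 change of -0.06, beside 25.0% lower and 19.5% higher among all genes. Outside the acute-phase genes 4 were lower and 11 higher, while 1307 of all 11335 genes were lower and 5898 higher. The neighbours with the smallest adjusted p were Cyb5r3, Ndufa6 (-0.64), a subunit of mitochondrial complex I, Serhl (-0.62) and Smdt1 (-0.39), a regulator of the mitochondrial calcium channel. All of these were lower, while changes among the 22 tested ran from -0.84 to 1.49. Smdt1 was at -0.02 (adjusted p = 0.684) outside the acute-phase genes.

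**Figure D5:**
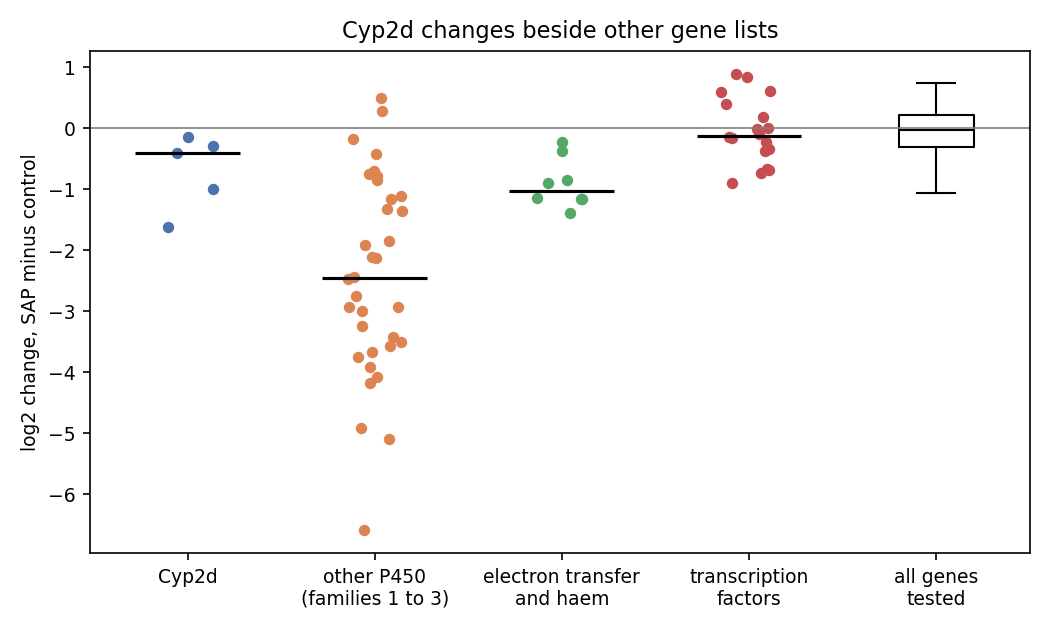
Log2 change, SAP minus control, of each tested gene of the Cyp2d family and 3 lists set beside it (other P450 genes, electron transfer and haem supply, transcription factors), 1 point a gene with a line at the median. All genes tested are a box of the quartiles with a line at the median and whiskers at the 5th and 95th percentile. The Cyp2d points lie nearer 0 than most other P450 genes, whose median is -2.45.

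Markers of cell types also differed between the groups, with directions that varied by type. The summed level of 9 hepatocyte markers, mostly Alb, was 37870 to 52310 TPM in SAP libraries and 83770 to 96670 TPM in control libraries. Of these 9, 6 were lower and 1 higher, while outside the acute-phase genes 5 were lower and 4 higher. Among all genes tested 25.0% were lower and 19.5% higher, and outside the acute-phase genes 1307 of 11335 were lower and 5898 higher. Neutrophil markers, of which 4 of 11 were tested and 3 were higher, summed to 37.2 to 113 TPM in SAP libraries and 4.97 to 20.8 TPM in control libraries. Monocyte markers, of which 4 of 8 were tested, 3 higher and 1 lower, summed to 60.9 to 97.5 TPM in SAP libraries and 42.6 to 63.4 TPM in control libraries. The neutrophil marker Retnlg (at most 0.9 TPM in control livers) and the monocyte marker Itgam (at most 0.52 TPM) passed the filter only through SAP libraries. The counts of higher calls in these lists are therefore set in part by the filter. Markers of Kupffer cells (10 tested, 1 higher and 3 lower), sinusoidal endothelium (8 tested, 3 higher and 1 lower) and stellate cells (8 tested, 5 higher and 1 lower) had calls in both directions. Outside the acute-phase genes the Kupffer cell markers had 2 higher and 0 lower, the endothelial ones 4 higher and 0 lower and the stellate ones 7 higher and 1 lower. Of 10 pancreatic acinar markers, 0 passed the filter and the highest value in any library was 4.54 TPM. The part of cell make-up in the Cyp2d changes was not tested.

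Libraries also differed in Xist, which 7 libraries had at 49.1 to 60.7 TPM (2 SAP and 5 control) and 5 at 4.59 to 17.1 TPM (4 SAP and control 5). Malat1, another RNA kept in the nucleus, differed between the same libraries, at 37.2 and 40.1 TPM in SAP and 26.2 to 39.9 TPM in control among the high Xist libraries, and at 2.76 to 8.19 TPM in SAP and 7.24 TPM in control among the low ones. The nuclear RNAs Neat1 and Firre were also higher in each of the 7 high Xist libraries than in any of the other 5. Over the 12 libraries the deviations of Cyp2d9 (r = 0.66) and Cyp2d10 (r = 0.57) followed those of Xist, given as a description, while Cyp2d40 had r = 0.14. Among the high Xist libraries Cyp2d10 was at 426 to 560 TPM in SAP and 834 to 970 TPM in control, and among the low ones at 295 to 510 TPM in SAP and 823 TPM in control. Cyp2d22 was at 82.0 to 106 TPM in SAP and 167 to 272 TPM in control among the high ones, and at 23.4 to 153 TPM in SAP and 238 TPM in control among the low ones. Both had separate groups on either side of that split. With the split as a term, Cyp2d26 (-0.26, adjusted p = 0.0634) and Cyp2d40 (-0.42, adjusted p = 0.0503) no longer passed, and among the high Xist libraries alone Cyp2d40 was at -0.24 (adjusted p = 0.238).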

How the data were processed

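RNA-seq of liver was deposited for 6 SAP and 6 control samples as 1 table of 55487 rows. The deposited values are taken to be TPM, since the authors' columns summed to between 993412 and 995793 in each library; no header or label names the unit. The submitters' processing notes name edgeR alone, without its version or role. For the aligner, build and treatment of shared reads: not given in the sources used here. Because TPM carries no depth, none is known, and counting intervals could not be made.

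Genes that reached 1 TPM in 6 or more libraries entered limma-trend (limma 3.58.1, R 4.3.3) on log2(TPM + 1), with the group as the only term, two-sided p and Benjamini-Hochberg adjustment at 0.05. The procedure was tested on simulated data. Of rows sharing a symbol (120 repeat one) the row with the highest median was kept; no Cyp2d symbol is repeated. Ratios to Cyp2d26 or Cyp2d10 were fitted in the same way. The members, the lists and the tests were chosen with earlier results of these data known. Named genes are all members, up to 4 genes with the smallest adjusted p of a list, Por, Hnf4a, Nr0b2, the Cyp2d pseudogenes and the 5 genes most like the family sum. Positions and transcripts come from GENCODE M21, promoters from RefSeq. Transcripts were aligned with Biopython 1.88 and used for identity in place of proteins. Figures were drawn with matplotlib 3.10.9. Alternatives covered scaling, filter, pseudocount, limma settings, the Xist split (at 30 TPM) and leaving out each library.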

Additional observations from a re-analysis of the deposited data

Results flagged for a closer look

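Of 38 sets of 6 libraries checked for a library far from the others, 5 had one, and chance gives about 1 in 20. In control livers, control 5 had the highest Cyp2d40 level, at 141.07 TPM, with the next at 117.01 TPM, and the highest Cyp2d40 share of the summed Cyp2d TPM, at 6.08%, with the next at 4.50%. Control 5 also had the lowest Cyp2d37-ps level of the control livers, at 6.42 TPM, with the next at 20.57 TPM. In SAP livers, SAP 12 had the highest Cyp2d38-ps level, at 26.47 TPM, with the next at 8.86 TPM. SAP 14 listed Cyp2d11 at 0.05 TPM while the other SAP libraries listed it at 0. Control 5 is also the only control library with low Xist.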

How the results depend on the processing

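Cyp2d10 (-1.07 to -0.63, adjusted p 2.66e-06 to 0.00136) and Cyp2d22 (-1.84 to -1.23, adjusted p 0.00129 to 0.0200) kept direction and call in 25 alternatives with a test in limma, and so did their changes relative to Cyp2d26. Members called lower were 4 as reported, 3 to 4 on leaving out each library, and 2 under quantile normalization, under rescaling outside acute-phase genes and with the Xist split as a term. Under these in turn Cyp2d26 was at -0.092, 0.088 (direction reversed) and -0.26, and Cyp2d40 at -0.11 (adjusted p = 0.392), -0.037 and -0.42. Cyp2d40 also lost its call without a filter (-0.41, adjusted p = 0.0883), in high Xist libraries alone (-0.24) and without SAP 14 and control 5 (-0.26, adjusted p = 0.0695). Leaving out each library gave -0.33 to -0.21 for Cyp2d26, -0.49 to -0.32 for Cyp2d40 and -0.25 to 0.02 for Cyp2d9. In low Xist libraries alone (4 SAP and 1 control, no test) Cyp2d9 was at 0.32, Cyp2d40 at -0.75, and relative to Cyp2d26 these were at 0.53 and -0.55.

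Over all genes, 2212 were higher and 2832 lower. Rescaling outside acute-phase genes gave 5898 higher and 1307 lower and shifted the median change by 0.32, so that 18.1% of calls were lower in place of 56.2%. High Xist libraries alone gave 1829 lower. Leaving out each library gave 1956 to 2452 higher and 2537 to 3062 lower. Apart from this rescaling's own construction, the cause of these differences was not tested. The ratios to Cyp2d10 were chosen after seeing the data. Count tests were not run on TPM. No paired analysis was possible because the SAP and control samples share no number. Depth is unknown, so values of Cyp2d11, Cyp2d12 and Cyp2d34 near 0 carry no counting error.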
